A study of Homo sapiens with 16 samples.

Results

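HEK293 cells, an established human embryonic kidney line, were given deoxycorticosterone acetate (DOC) and phorbol 12-myristate 13-acetate (PMA) together, and their expression profile was compared with that of vehicle-treated cells. Every culture in the series carried an expression plasmid for the human mineralocorticoid receptor (MR, the product of NR3C2), at 500 ng per well for 24 h, so the receptor was present in the controls too. The comparison used 8 of the 16 arrays. In 4 of them, titled MR expression with DOC and PMA stimulation, the cells had received DOC at 100 nM and PMA at 10 nM for 4 h, and in the other 4, titled MR expression, the vehicle alone. The remaining 4 arrays with DOC alone and 4 with PMA alone served to set the combined response beside the single ones. Cells lacking the plasmid were not analysed here, and what the receptor adds to any value could not be tested. The receptor is made from a transfected plasmid in this model, and the cells are 1 line. The titles number the arrays of each group as biological replicates, without saying whether each came from its own transfection, and the p-values measure the spread between these arrays.

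The mineralocorticoid receptor is a steroid-hormone receptor that rests in the cytoplasm with chaperones, moves to the nucleus when aldosterone, DOC or cortisol binds it, and regulates genes such as SGK1 and FKBP5. In the kidney it is known for raising sodium reabsorption in the distal nephron. PMA stands in for diacylglycerol and switches on protein kinase C, which drives the ERK kinase cascade, the serum response factor and ternary complex factors at immediate-early genes, AP-1 (dimers of FOS and JUN proteins) and NF-kB. Immediate-early genes are transcribed within minutes without new protein, and many encode transcription factors, secreted signals or inhibitors of the same cascade.

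Values were log2 signals, so a difference of 1 is a doubling. One probe set stood for each gene, 12495 genes were tested, and a gene was called where the adjusted p was under 0.05 (limma over all 16 arrays, Benjamini-Hochberg). The 8 arrays were close in scale, as the medians of all 16 arrays lay between 4.91 and 4.96. Correlations between arrays across probe sets were 0.994 to 0.996 within the vehicle group and within the combined group, and 0.966 to 0.971 between them. The cells carried transcripts of 7 of 7 HEK293 and kidney epithelium markers above the detection filter, among them vimentin (VIM, 12.69 with vehicle and 12.80 with both agents) and neurofilament light chain (NEFL, 10.12 and 9.73). The log2 of their summed signal was 13.32 to 13.55 in the vehicle arrays and 13.67 to 13.75 in the combined ones, and 3 of them rose, NEFM, KRT8 and KRT18, while NEFL fell by 0.39. Of the markers of other cell types the filter took out 5 of 7 leukocyte markers on the array (PTPRC, CD3E, CD14, LYZ and ITGAM), 5 of 7 fibroblast markers (COL1A2, COL3A1, DCN, LUM and PDGFRA) and 2 of 7 endothelial ones (CDH5 and TEK). The log2 of the summed signal of the tested ones was 5.37 to 5.71 with vehicle and 5.81 to 6.02 with both agents for leukocyte markers, 5.13 to 5.41 and 5.01 to 5.30 for fibroblast markers, and 6.90 to 7.09 and 7.01 to 7.17 for endothelial markers. Of the tested ones, the leukocyte marker CORO1A (0.45, adjusted p = 0.00513) and the endothelial marker PECAM1 (0.22, adjusted p = 0.0332) were higher with both agents and the fibroblast marker POSTN lower (−0.39, adjusted p = 0.0244). All 3 calls were lost under at least 1 alternative, and with a common array median 3 endothelial markers were called higher and 0 fibroblast markers lower. The part of these markers in any result was not tested. NR3C2 itself had signals of 7.24, 7.47, 7.51 and 7.51 with vehicle and 6.95, 7.28, 6.88 and 6.99 with both agents. It fell by 0.41 ± 0.11 (log2 difference ± SE, adjusted p = 0.00413), with 1 combined array inside the vehicle range. Whether its probe set reads the plasmid transcript, the endogenous one or both was not checked.

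The combined treatment moved a large share of the measured transcriptome, mostly by small amounts, and its largest effects were rises. Of 12495 genes, 5476 were called (43.8%), 2185 higher (17.5%) and 3291 lower (26.3%). Changes of at least 2-fold were made by 265 genes upward (2.12%) and 186 downward (1.49%). At 4-fold the split was 76 genes upward (0.608%) against 4 downward (0.032%), which were SKIDA1, SMAD6, LIPT2-AS1 and ZNF449. The median size of a called difference was 0.41, and 64.4% of called genes differed by less than 0.5. The 4 combined arrays and the 4 vehicle arrays did not overlap in 5406 genes (43.3%), above the vehicle range in 2122 (17%) and below it in 3284 (26.3%), and 4828 of these genes (38.6%) were also called. In these bulk arrays, a change in every cell and a change in some cells cannot be told apart, nor can fewer cells of a kind and less RNA per cell.

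**Figure D1:**
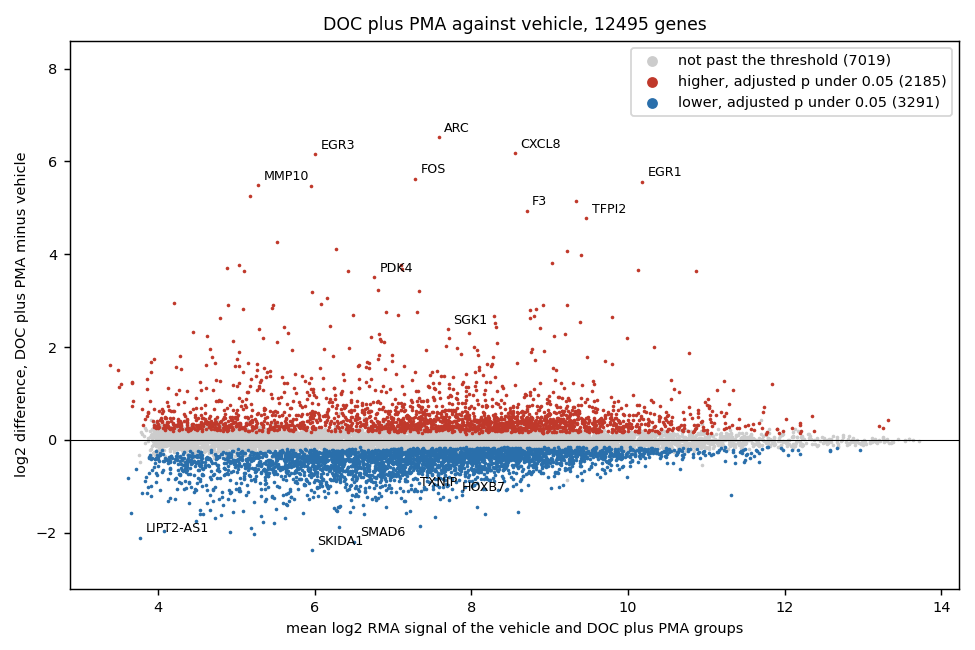
Log2 difference between DOC plus PMA and vehicle (vertical axis) against the mean log2 signal of the 8 arrays (horizontal axis), 1 point for each of 12495 genes. Called genes are coloured, 2185 higher and 3291 lower. The rises reach above 6, while no fall goes beyond −2.38.

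The balance of higher against lower calls depended on how the arrays were scaled. Of called genes, 39.9% were higher with the deposited values, 48.0% after cyclic loess and 55.1% when each array was set to a common median. The median over all genes of the difference between the groups was −0.03 as deposited, and 0.0032 and 0.04 under those scalings. None of the called genes changed sign under either scaling. A list below is therefore read beside these all-gene figures: 17.5% of genes rose, 26.3% fell, and the median difference was −0.03. List counts cover tested members only, and members that stayed below the filter are not in them.

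The largest rise was that of ARC. This gene, activity-regulated and best known from neurons, gave signals of 4.02, 4.47, 4.61 and 4.19 with vehicle and 10.66, 11.11, 10.69 and 10.92 with both agents. Its difference of 6.52 ± 0.21 (adjusted p = 3.34e-14), a 91.8-fold rise, exceeded that of every other gene tested. CXCL8, the neutrophil attractant interleukin-8, read 5.79, 4.95, 5.65 and 5.47 with vehicle and 11.70, 11.79, 11.49 and 11.59 with both agents, a rise of 6.18 ± 0.16 (adjusted p = 1.58e-15). In both genes every combined array stood far above every vehicle array, and the choice of the largest rises required that the groups not overlap. FOS, the AP-1 subunit, read 4.61, 4.00, 4.63 and 4.64 with vehicle and 10.09, 10.14, 10.10 and 10.06 with both agents. This was a rise of 5.63 ± 0.11 (adjusted p = 7.73e-17). EGR1, a zinc finger factor and a standard reporter of ERK activity, read 7.49, 6.94, 7.69 and 7.48 with vehicle and 12.95, 13.04, 12.90 and 12.98 with both agents. Its rise was 5.56 ± 0.13.

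Among the 15 largest rises were also genes of proteins that act outside the cell. MMP10, the matrix protease stromelysin-2, read 2.67, 2.70, 2.53 and 2.26 with vehicle and 7.79, 8.34, 7.80 and 8.15 with both agents. CCL7, a monocyte attractant, read 2.48, 2.63, 2.86 and 2.24 with vehicle and 8.06, 7.71, 7.72 and 7.73 with both agents. F3, the tissue factor that starts blood coagulation, read 6.32, 6.05, 6.28 and 6.30 with vehicle and 11.38, 11.33, 10.88 and 11.11 with both agents. TFPI2, an inhibitor of the coagulation protease complex that F3 forms, rose alongside it, from 7.33, 7.13, 6.96 and 6.88 to 11.89, 11.79, 11.88 and 11.86. The rises were 5.48 ± 0.14 for MMP10, 5.25 ± 0.14 for CCL7, 4.94 ± 0.15 for F3 and 4.78 ± 0.10 for TFPI2. In none did the groups overlap, which the choice of the 15 required. The other 7 of the 15 were EGR3 (6.15), the small GTPase ARL14 (5.48), C11orf96 (5.15), the small MAF factor MAFF (4.27), the AP-1 subunit FOSB (4.11), the mRNA-destabilising protein ZFP36 (4.08) and the early response gene IER3 (3.99). For 8 of the 15 the vehicle mean lay below the lowest array median, and 5 had no vehicle array above the filter level. These 5 (ARL14, CCL7, EGR3, MAFF and MMP10) entered the test only through arrays of treated cells, so their inclusion fixed a difference. The same holds below for CCL2, CCL20, CXCL2, IL11, PTGS2, EGR4, DUSP2, SPRY4 and RGS4. Signals this low lie near the background of the array, where a difference has no exact size.

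**Figure D2:**
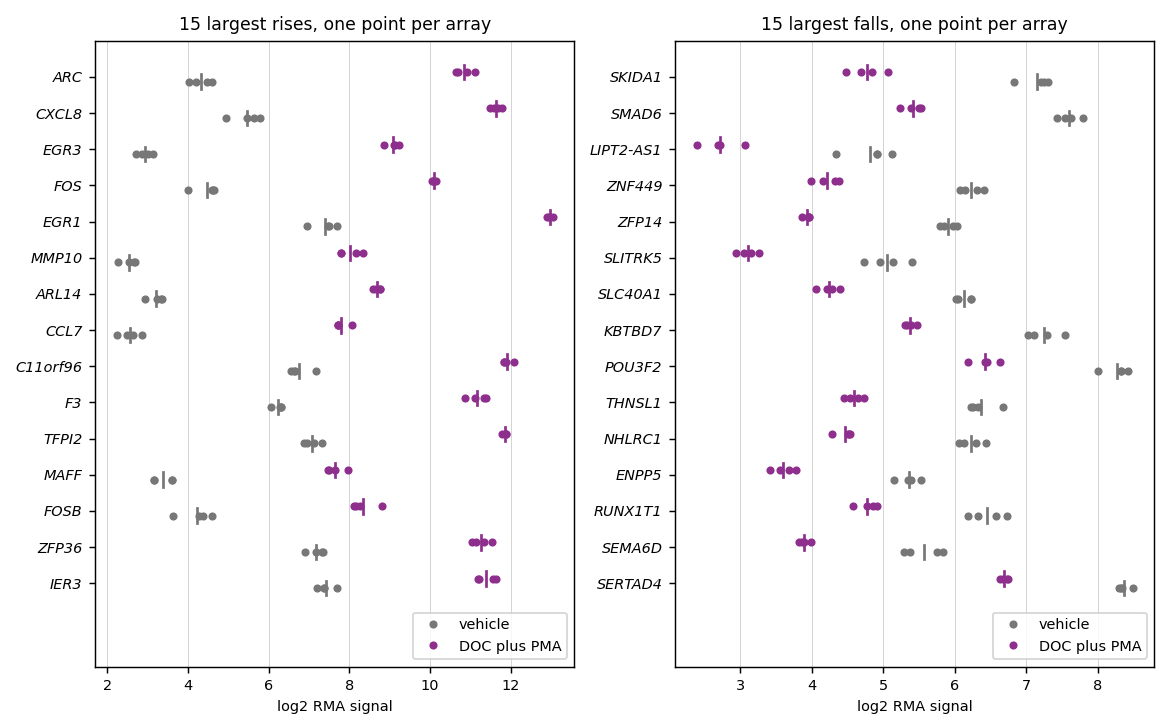
Log2 signal on each array for the 15 largest rises and the 15 largest falls, with vehicle arrays and DOC plus PMA arrays as separate points. The groups do not overlap in any of the 30 genes, which the choice of these genes required, and the rises span a wider range than the falls.

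The stretch upstream of the start of 7 of the 15 risen genes is printed because these letters show where the recognition sequences of the classical PMA-responsive factors lie. They come from RefSeq (GRCh38.p14), are the 250 bases before the gene start, read 5′ to 3′ on the strand of the gene, and carry in capitals each match to 3 of the 6 motifs searched. These 3 were the AP-1 site TGANTCA, the cyclic AMP response element TGACGTCA and the serum response element, a CC and a GG around 6 bases of A or T. Only genes with a match to 1 of these 3 were printed, so a match in each of the 7 was fixed by this choice. FOS, FOSB and ZFP36 had a listed window but no such match, and were left out. Both strands were searched, and no match of one motif overlaps a match of another.
CXCL8, chr4:73740319-73740568, forward strand: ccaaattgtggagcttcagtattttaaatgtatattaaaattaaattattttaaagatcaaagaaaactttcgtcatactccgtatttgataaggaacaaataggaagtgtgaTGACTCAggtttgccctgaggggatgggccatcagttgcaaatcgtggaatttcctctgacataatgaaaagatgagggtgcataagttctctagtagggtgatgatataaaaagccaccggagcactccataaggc
MMP10, chr11:102780629-102780878, reverse strand: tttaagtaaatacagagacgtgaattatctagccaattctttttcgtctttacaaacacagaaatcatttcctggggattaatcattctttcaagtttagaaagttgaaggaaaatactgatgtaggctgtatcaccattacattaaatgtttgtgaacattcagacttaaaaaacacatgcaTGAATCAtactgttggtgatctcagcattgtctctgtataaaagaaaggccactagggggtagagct
CCL7, chr17:34269971-34270220, forward strand: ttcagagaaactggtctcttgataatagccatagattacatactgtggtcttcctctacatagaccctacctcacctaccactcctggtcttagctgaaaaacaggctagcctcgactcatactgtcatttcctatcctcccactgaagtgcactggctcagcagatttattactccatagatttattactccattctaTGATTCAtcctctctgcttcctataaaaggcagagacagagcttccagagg
F3, chr1:94541760-94542009, reverse strand: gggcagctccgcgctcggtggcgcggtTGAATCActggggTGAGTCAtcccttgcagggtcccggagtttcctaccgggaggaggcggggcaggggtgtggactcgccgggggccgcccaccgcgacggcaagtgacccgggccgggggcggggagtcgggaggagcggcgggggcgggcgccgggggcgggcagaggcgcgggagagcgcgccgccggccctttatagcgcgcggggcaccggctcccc
TFPI2, chr7:93890754-93891003, reverse strand: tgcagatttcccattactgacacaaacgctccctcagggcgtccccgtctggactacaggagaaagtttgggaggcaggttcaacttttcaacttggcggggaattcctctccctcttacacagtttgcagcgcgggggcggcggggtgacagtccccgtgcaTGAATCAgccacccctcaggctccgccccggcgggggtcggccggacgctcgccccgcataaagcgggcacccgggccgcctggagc
EGR1, chr5:138465229-138465478, forward strand: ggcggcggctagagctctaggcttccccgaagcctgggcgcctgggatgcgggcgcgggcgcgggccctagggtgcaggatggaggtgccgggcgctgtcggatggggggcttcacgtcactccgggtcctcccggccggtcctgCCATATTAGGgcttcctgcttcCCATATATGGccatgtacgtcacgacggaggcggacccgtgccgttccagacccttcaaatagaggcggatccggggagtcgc
MAFF, chr22:38201744-38201993, forward strand: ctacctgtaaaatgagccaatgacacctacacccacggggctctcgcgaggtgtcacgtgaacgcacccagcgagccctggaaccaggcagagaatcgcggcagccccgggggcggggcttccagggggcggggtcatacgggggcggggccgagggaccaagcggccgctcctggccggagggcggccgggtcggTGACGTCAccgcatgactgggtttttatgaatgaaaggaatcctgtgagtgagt
CXCL8 holds an AP-1 match 137 bases before its start, MMP10 at 67, CCL7 at 51 and TFPI2 at 87, while F3 holds a pair, at 223 and 210. EGR1 holds serum response elements at 105 and 83 bases, and MAFF, for which the first of 2 listed starts was used, a cyclic AMP response element at 54. A window of 300 bases, the 250 printed and the 50 after the start, was listed for 10 of the 15 genes. It held an AP-1 match in 5 of 10, against 4.5% of the windows of tested genes (462 of 10257) and 7.76% of the windows of all listed genes. Among genes that rose at least 2-fold the share was 23 of 199 (11.6%), at least 4-fold 12 of 56 (21.4%), and among genes that fell at least 2-fold 0 of 145, which allows a share of up to 2.07%. The cyclic AMP response element was in 3.33% of the windows of tested genes, 4.02% of those of 2-fold rises and 1.38% of those of 2-fold falls. For the serum response element the shares were 1.08%, 2.51% and 0.690%, for the EGR site GCGNGGGCG 15.8%, 25.6% and 14.5%, and for the NF-kB site 13.3%, 18.1% and 19.3%, higher among falls than rises. The glucocorticoid response element AGAACANNNTGTNCT was in 0 of the 10257 windows of tested genes, which allows a share of up to 0.0293%. It was in only 14 of the 27305 windows of all listed genes. A pattern this strict could not tell steroid-responsive genes from others, and looser forms of the element were not searched. These motifs were searched on both strands, and EGR matches were not checked for overlap with the others. A match in these letters does not show that a factor was bound.

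Among AP-1 subunits 8 of 13 rose and 1 fell, with a median difference of 0.73. Beside FOS and FOSB, JUNB rose from 5.16, 5.11, 5.07 and 4.52 to 7.25, 7.66, 7.12 and 7.69, or 2.46 ± 0.15. FOSL1 (2.43), FOSL2 (1.55), ATF3 (1.09) and JUN (0.73) followed, so each of the 4 FOS genes differed by more than JUN. JUND (0.26, adjusted p = 0.0507) and ATF2 (0.22, adjusted p = 0.0583) missed the threshold. They passed it under both other scalings, where 10 of 13 rose and 0 fell.

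The 5 tested EGR factors and NAB corepressors rose, 2 of which (EGR3 and EGR4) had no vehicle array above the filter level. The others were EGR1, NAB2 (2.11) and NAB1 (1.23), the last pair known to bind EGR proteins and repress their targets. EGR4 rose by 2.63 ± 0.13. The 3 NR4A genes, orphan nuclear receptors of the immediate-early class, rose by 2.17 (NR4A1), 1.64 (NR4A3) and 1.11 (NR4A2). Of 13 Kruppel-like factors, zinc finger regulators of growth and differentiation, 9 rose and 1 fell. KLF10 (1.70), KLF5 (1.23), KLF6 (1.04) and KLF4 (0.86) led, and KLF11 fell by 0.64 ± 0.09, although its other probe sets differ in sign. KLF12 was higher by 0.69 in its main probe set and lower, at −0.15, when its probe sets were averaged.

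Of 16 chemokines on the array 11 were tested, 6 rose and 1 fell. The filter left out 5 that stayed low and let in 4 that no vehicle array showed above its level, CXCL2, CCL2, CCL7 and CCL20, so the share that rose says little. CCL20 (3.69 ± 0.20), which draws CCR6-bearing lymphocytes, CCL2 (2.32) and CXCL2 (1.67) rose with CXCL8 and CCL7. CXCL12, the ligand of CXCR4, went the other way, from 5.20, 5.28, 4.78 and 5.15 to 4.05, 4.48, 4.11 and 3.88, and fell by 0.98 ± 0.14 (adjusted p = 1.99e-05). The interferon-driven CXCL10 differed by 0.02 ± 0.28 (adjusted p = 0.961). Of 18 cytokines and growth factors on the array 13 were tested, 9 rose and 0 fell, with a median of 0.50. The filter took out IL1A, IL6, IL18, IL24 and TNF and let in IL11, which no vehicle array showed above its level. IL11, an interleukin-6 family cytokine, rose by 2.95 ± 0.23, its 4 arrays moving from 2.93, 2.87, 2.61 and 2.48 to 5.77, 6.38, 5.25 and 5.30. INHBA, the activin A subunit, rose by 2.69, LIF by 1.97, FGF2 by 1.37 and PDGFA by 1.11.

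Of 20 genes of matrix proteolysis and the plasminogen system on the array 13 were tested, 10 rose and 1 fell, with a median of 1.16. The filter took out MMP1, MMP3, MMP7, MMP9, MMP12, MMP16 and TIMP4 and let in MMP10, which no vehicle array showed above its level. The share that rose therefore covers detected genes only. Both plasminogen activators rose, PLAT by 2.25 ± 0.12 and PLAU by 1.30 ± 0.13, along with the urokinase receptor PLAUR (2.13) and the collagenase MMP13 (1.17). The metalloprotease inhibitors went both ways: TIMP3 rose by 1.16 and TIMP1 by 0.76, while TIMP2 was lower (−0.20), a call that neither other scaling kept. MMP2 (0.24) and MMP14 (0.08) did not pass the test. In prostaglandin synthesis, PTGS2, the inducible cyclooxygenase, rose from 2.96, 3.43, 3.27 and 3.45 to 6.80, 7.08, 6.83 and 6.98, or 3.65 ± 0.11. HPGD, the enzyme that inactivates prostaglandins, fell by 0.49 ± 0.10, and over the list 3 of 7 rose and 2 fell. Of the EGF receptor group 4 of 8 rose and 2 fell: the ligand HBEGF rose by 2.00, the receptor EGFR by 0.97 and the receptor inhibitor ERRFI1 by 1.71.

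Of 9 MAP kinase phosphatases 7 rose and 0 fell, with a median of 0.88. DUSP6, which is specific for ERK, read 5.19, 4.95, 5.36 and 5.36 with vehicle and 8.94, 9.17, 8.67 and 9.15 with both agents, a rise of 3.77 ± 0.13 (adjusted p = 1.01e-13). The nuclear phosphatases DUSP2 (2.82), DUSP1 (2.28) and DUSP5 (2.02) followed. Of 6 Sprouty and SPRED genes, which restrain receptor tyrosine kinase signalling, 4 rose and 1 fell. SPRY2 (2.19), SPRY4 (1.82) and SPRED1 (1.60) rose, while SPRY1 fell by 0.38 ± 0.07. The paralogues TRIB1 and TRIB2, pseudokinases that steer ubiquitin ligases, moved apart: TRIB1 rose by 3.81 ± 0.08 and TRIB2 fell by 0.98 ± 0.07. Of 9 genes of mRNA decay and the antiproliferative BTG and TOB family 8 rose and 1 fell, with a median of 0.70.

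Of 15 genes of NF-kB subunits, inhibitors and targets 8 rose and 0 fell, with a median of 0.29. Those with the smallest p were the pathway's own inhibitors TNFAIP3 (1.74 ± 0.15) and NFKBIA (1.35 ± 0.12), the surface protein CD83 (1.57) and the subunit NFKB1 (1.25). Of 15 genes of protein kinases C and D and related diacylglycerol signalling 2 rose and 7 fell, with a median of −0.24. PRKCD rose by 1.07 ± 0.06, from 6.30, 6.23, 6.16 and 6.23 to 7.29, 7.40, 7.25 and 7.29, and PRKCI, an atypical isoform that phorbol esters do not bind, by 0.58. PRKCQ fell by 0.51 and the diacylglycerol-binding exchange factor RASGRP1 by 0.43. Under either other scaling 5 of the 15 fell.

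**Figure D3:**
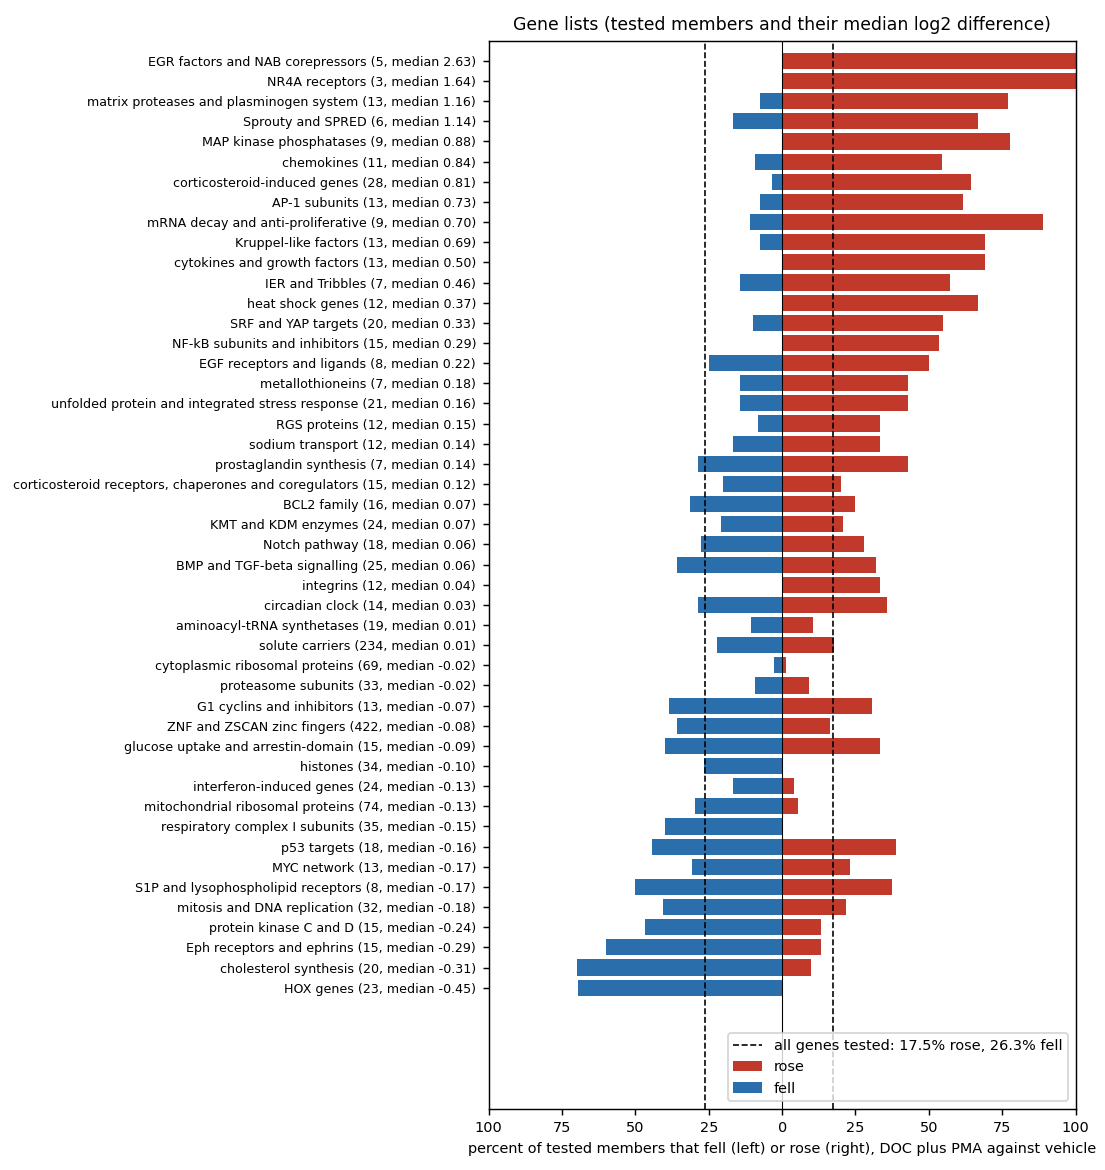
Share of the tested members of each gene list that rose and that fell with DOC plus PMA against vehicle (horizontal axis, percent, falls to the left). Lines mark the shares of all 12495 genes, 17.5% higher and 26.3% lower. Lists of immediate-early and feedback genes extend to the right and the HOX and cholesterol synthesis lists to the left.

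Genes driven by the actin-sensing factors SRF and YAP rose in 11 of 20 and fell in 2. CCN2, connective tissue growth factor, read 8.85, 7.93, 8.32 and 8.10 with vehicle and 11.86, 12.18, 11.89 and 11.91 with both agents, a rise of 3.66 ± 0.20. CCN1 rose by 2.80 ± 0.09, and the Hippo kinase LATS2 by 1.31. Of 12 integrins 4 rose and 0 fell, with ITGAV at 0.73 and ITGA6 at 0.64. Eph receptors and ephrins, which sort cells at tissue boundaries, fell in 9 of 15 and rose in 2. EPHA2 rose from 5.94, 5.62, 5.75 and 5.64 to 8.89, 9.17, 8.78 and 8.91, or 3.20 ± 0.11. EPHA7, of the same receptor class, fell from 9.21, 9.45, 9.45 and 9.35 to 7.68, 8.10, 7.66 and 7.87, or by 1.54 ± 0.11. Its partner ligand EFNA5 fell by 1.23, and EFNB2 rose by 1.06.

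The largest falls were smaller than the largest rises. SKIDA1 fell the furthest, from 6.83, 7.21, 7.24 and 7.31 to 5.07, 4.69, 4.48 and 4.84, or by 2.38 ± 0.12 (adjusted p = 3.29e-11). SMAD6, an inhibitor of BMP signalling, went from 7.43, 7.63, 7.54 and 7.80 to 5.50, 5.52, 5.38 and 5.24, a difference of −2.19 ± 0.10. Probe sets of SMAD6 differ in sign, so this holds for the one with the highest signal. POU3F2, a neural POU-domain factor, went from 8.42, 8.01, 8.33 and 8.32 to 6.45, 6.64, 6.18 and 6.43, a difference of −1.85 ± 0.10. Every combined array lay below every vehicle array in these 3 genes, which the choice of the 15 largest falls required. The other 12 were LIPT2-AS1 (−2.10), the zinc finger genes ZNF449 (−2.02) and ZFP14 (−1.98), SLITRK5 (−1.95), the iron exporter SLC40A1 (−1.89), KBTBD7 (−1.87), THNSL1 (−1.78), NHLRC1 (−1.77), ENPP5 (−1.75), the corepressor RUNX1T1 (−1.68), the semaphorin SEMA6D (−1.67) and SERTAD4 (−1.67). For 11 of the 15 the combined mean lay below the lowest array median, close to the array's background. The combined mean of LIPT2-AS1 and every combined array of ZFP14 lay below the filter level of 4.05 to 4.12. These genes passed the filter largely through arrays of other groups, so their inclusion favoured a fall. The same limit holds for any other gene that fell below the filter level. LIPT2-AS1 is an antisense RNA, and the strand its probes read was not checked.

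HOX genes, which set position along the body axis, fell in 16 of 23 and rose in 0, with a median of −0.45. The same counts were found under both other scalings. HOXB7 fell the most, from 8.29, 8.34, 8.49 and 8.55 to 7.36, 7.08, 7.08 and 7.24, a difference of −1.22 ± 0.08 (adjusted p = 1.82e-09). HOXC4 (−0.97), HOXC6 (−0.79) and HOXD13 (−0.77) followed, none with overlapping groups. Among 422 zinc finger genes of the ZNF, ZSCAN and ZKSCAN symbols 151 fell and 69 rose, with a median of −0.08, and with a common array median 131 fell and 98 rose. They supplied 17 of the 186 falls of at least 2-fold and 2 of the 265 rises. ZNF33B (−1.64), ZNF285 (−1.41) and, upward, ZNF697 (1.51) were among the most significant. Histone genes fell in 9 of 34 and rose in 0, or 5 and 1 with a common array median. As deposited, the share that fell was near the 26.3% of all genes tested. The 24 histone lysine methylases and demethylases split into 5 up and 5 down, or 5 and 3 after cyclic loess. They were led by KDM6B (1.61 ± 0.13), a demethylase of the Polycomb mark.

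BMP and TGF-beta genes moved both ways, 8 of 25 up and 9 down. The ligand BMP2 rose by 1.25 ± 0.06 and SKIL, a repressor of SMAD complexes, by 1.93 ± 0.11. ID3, a standard BMP target, fell from 8.94, 8.997, 9.04 and 8.90 to 7.44, 7.19, 7.49 and 7.41, or by 1.59 ± 0.08, so ligand and target changed in opposite directions. The median of this list was 0.06, and −0.20 when probe sets were averaged. Notch pathway genes divided evenly, 5 of 18 up and 5 down. NRARP, a Notch-induced inhibitor of the pathway, stood out at 2.55 ± 0.08. Clock genes were 5 of 14 up and 4 down: PER2 (1.34), BHLHE40 (1.43) and CRY1 (0.93) rose, while PER3 (−0.74) and NR1D2 (−0.78) fell.

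Genes of growth control did not move as a block. MYC rose from 7.19, 7.19, 7.67 and 7.77 to 8.68, 8.79, 8.96 and 8.96, or 1.39 ± 0.16, while its relatives MYCL (−0.55) and MYCN (−0.42) fell. CDKN1A, the p21 inhibitor of cyclin-dependent kinases, rose by 1.87 ± 0.15, and CDKN1B, the p27 inhibitor, fell by 0.96 ± 0.07. Cyclin D1 (CCND1) rose by 0.87 ± 0.11. Of 32 mitosis and DNA replication genes 7 rose and 13 fell, with KIF20A (−0.64) and KIF11 (−0.52) among the falls and RRM2 (0.66) among the rises. With a common array median 8 of the 32 fell. CDKN1A is also a p53 target, yet the next p53 targets by p were SESN1 (−0.84), XPC (−0.73) and BAX (−0.59), and 7 of 18 rose against 8 that fell, or 5 with a common array median. Among BCL2 family members MCL1, which protects from apoptosis, rose by 1.28 ± 0.09, and over the list 4 of 16 rose and 5 fell, or 7 and 4 with a common array median.

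Of 20 cholesterol synthesis genes 14 fell and 2 rose, with a median of −0.31. SQLE, squalene epoxidase, fell from 9.69, 9.79, 9.61 and 9.51 to 8.60, 8.70, 8.74 and 8.68, or by 0.97 ± 0.08. INSIG1 and INSIG2, which both hold back the sterol sensor SCAP, moved apart, at 0.68 ± 0.08 and −0.76 ± 0.09. Mitochondrial ribosomal proteins fell in 22 of 74 and rose in 4 (17 and 7 with a common array median), with MRPL34 lowest at −0.64. The share of them that fell as deposited was near the 26.3% of all genes tested. Complex I subunits fell in 14 of 35 by small amounts, such as 0.28 ± 0.06 for NDUFS6, and in 4 of 35 with a common array median. Cytoplasmic ribosomal proteins gave 1 rise and 2 falls among 69 (1 and 6 after cyclic loess, 3 and 2 with a common array median), RPL27A at 0.52, RPL39L at −0.43 and RPL13 at −0.30. The 33 proteasome subunits gave 3 and 3. Among 234 solute carriers 41 rose and 52 fell, a balance that turned to 59 and 38 with a common array median and to 47 and 40 after cyclic loess. As deposited, the share that rose was near the 17.5% of all genes, and the share that fell was below the 26.3%. SLC35G2 (1.64) and the arginine transporter SLC7A1 (0.97) rose, while SLC16A14 fell by 1.31.

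Heat shock genes rose in 8 of 12 and fell in 0. HSPB8 rose by 2.30 ± 0.24, from 7.35, 6.66, 6.58 and 6.67 to 9.44, 9.38, 8.78 and 8.85, and its partner BAG3 by 0.72. The unfolded protein and integrated stress response list gave 9 of 21 up and 3 down: PPP1R15A, which restores translation after stress, rose by 0.92, and DDIT4, an inhibitor of the growth kinase mTORC1, fell by 1.13 ± 0.10. Interferon-induced genes gave 1 rise and 4 falls among 24, or 2 and 3 under either other scaling. IFIT1, an interferon-induced RNA-binding protein, fell by 1.18 ± 0.22, from 12.54, 11.53, 11.72 and 11.84 to 11.04, 10.59, 10.56 and 10.70, the vehicle arrays spanning more than the combined ones. Among 12 housekeeping genes 2 rose and 3 fell, or 3 and 1 with a common array median. The transferrin receptor TFRC rose by 1.03 ± 0.07, while PGK1 (−0.35) and GAPDH (−0.17) were among the falls, calls lost under at least 1 alternative. PPIA (−0.04), GUSB (0.03) and HPRT1 (0.07) were not called. However, PPIA was called lower, at −0.32, when its probe sets were averaged, and HPRT1 higher with a common array median.

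Smaller signalling families split by member. Of 12 RGS genes, which shorten G-protein signals, 4 rose and 1 fell: RGS4 rose by 2.91 ± 0.09 and RGS3 fell by 0.50 ± 0.11. Sphingosine 1-phosphate and lysophospholipid genes gave 3 rises and 4 falls among 8, with the receptors S1PR3 and S1PR1 moving apart, at 1.52 ± 0.08 and −0.72 ± 0.16, and the kinase SPHK1 rising by 1.03 ± 0.09. Of 15 genes of glucose uptake and the arrestin-domain family 5 rose and 6 fell. PFKFB3, which makes an activator of glycolysis, rose by 0.97, and ARRDC3, an adaptor of receptor endocytosis, fell by 1.22. Among 19 aminoacyl-tRNA synthetases 2 rose and 2 fell, AARS1 by 0.83 ± 0.08, and with a common array median 5 rose and 1 fell.

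Genes known to be induced by corticosteroids rose in 18 of 28 and fell in 1, with a median of 0.81. Part of the list also answers to PMA. Of the 28, 10 were called for the difference between the combined and the PMA group, against 0.384% of all genes tested. The list was drawn up with earlier results of these data known, so its counts describe its members and are no independent test. GADD45B (3.65) and DUSP1 (2.28) rose with both agents, but PMA alone gave 3.60 and 2.19 and DOC alone 0.04 and 0.12. SGK1, the kinase that keeps epithelial sodium channels at the membrane, read 6.51, 6.54, 6.57 and 6.42 with vehicle and 7.60, 7.20, 7.56 and 7.39 with DOC. With PMA it read 7.99, 7.88, 7.88 and 8.01, and with both agents 8.87, 8.86, 8.83 and 9.03. Each step of this order was free of overlap, the combined rise was 2.39 ± 0.08, and the combined group stood 0.96 ± 0.08 above PMA alone (adjusted p = 1.04e-06). FKBP5, a chaperone that lowers the hormone affinity of steroid receptors, rose by 0.86 ± 0.08, against 0.58 with DOC alone and 0.35 with PMA alone, and stood 0.51 ± 0.08 above PMA (adjusted p = 0.00211). KLF9 (0.84) and NFKBIA were higher than with vehicle, but were not called against PMA. TSC22D3, the glucocorticoid-induced leucine zipper, read 9.03, 8.95, 8.89 and 8.93 with vehicle, 9.64, 9.58, 9.73 and 9.38 with DOC, and 7.80, 7.57, 7.83 and 7.86 with PMA. With both agents it read 8.94, 8.62, 9.0 and 8.89, within 0.09 of vehicle on average (adjusted p = 0.464) and 1.10 above PMA (adjusted p = 9.33e-07). DDIT4, also of this list, was the gene that fell.

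Of 12 genes of epithelial sodium transport 4 rose and 2 fell, SGK1 first. NEDD4L, the ubiquitin ligase that removes the sodium channel and is held off by SGK1, rose by 0.97 ± 0.08, and 1.10 with PMA alone, though its probe sets differ in sign. The sodium pump subunit ATP1B1 rose by 0.30 ± 0.07, and the kinases WNK1 (−0.29) and OXSR1 (−0.35) fell. The channel subunit SCNN1A was near the array background, at 4.45 and 4.38. The glucocorticoid receptor NR3C1 differed by −0.16 ± 0.11 (adjusted p = 0.256) and passed the threshold when its probe sets were averaged (adjusted p = 0.0155). Metallothioneins, zinc-binding proteins that corticosteroids and zinc induce, gave 3 rises and 1 fall among 7, or 5 and 1 with a common array median. MT2A rose by 0.78 ± 0.15, and replicate 1 was highest in every group, at 11.31, 11.48, 11.22 and 11.94 in vehicle, DOC, PMA and the combination.

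**Figure D4:**
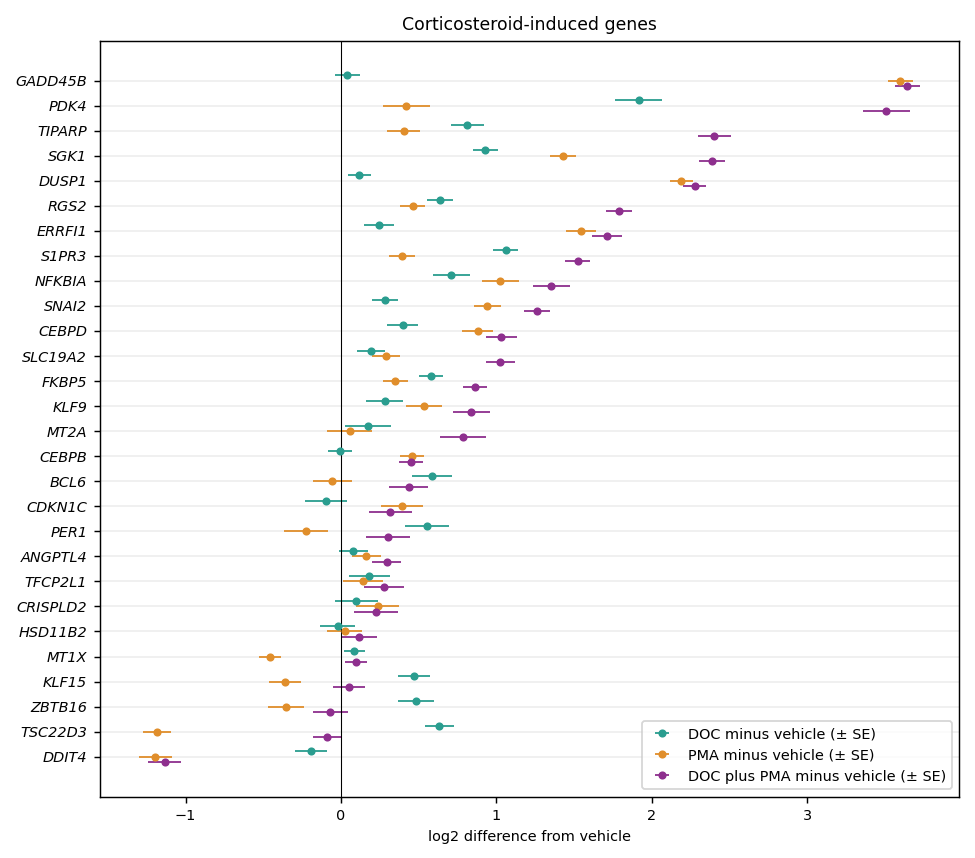
Log2 difference from vehicle for the 28 tested corticosteroid-induced genes (1 row each) with DOC alone, PMA alone and both agents, with SE bars. PDK4, TIPARP, RGS2 and S1PR3 lie furthest to the right of their PMA value with both agents, and TSC22D3 returns from −1.18 with PMA to near 0.

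Few genes differed between the combined treatment and PMA alone. Of 12495 genes 48 were called (0.384%), with 45 higher (0.36%) and 3 lower (0.024%). With the replicate block, by which these arrays met the criterion for pairing, 48 were higher and 8 lower. The unadjusted p was under 0.05 in 544 genes. Of the 5476 genes called against vehicle, 99.4% lay within 0.5 log2 units of the PMA group, as did 99.6% of all genes tested. None of the 15 largest rises or 15 largest falls was called against PMA (limma), 5 of the 30 had an unadjusted p under 0.05, and the closest was ARL14 (−0.51, adjusted p = 0.0507). The values of the combined and PMA groups against vehicle share the vehicle arrays, so they are given side by side only. PMA alone called 5869 genes against vehicle (47%) and DOC alone 15 (0.12%).

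CYP26A1, a retinoic acid hydroxylase, had the smallest p. It read 4.73, 4.36, 4.61 and 4.73 with vehicle, 4.03, 4.46, 4.48 and 4.47 with DOC, 5.48, 5.51, 5.35 and 5.73 with PMA and 8.45, 8.38, 7.87 and 8.32 with both. DOC arrays lay within or below the vehicle range, PMA arrays above it, and the combined arrays 2.74 ± 0.13 above PMA (adjusted p = 6.08e-10), a 6.67-fold difference. PDK4, a kinase that turns off pyruvate dehydrogenase, read 5.04, 4.94, 4.98 and 5.04 with vehicle, 7.50, 6.73, 6.60 and 6.82 with DOC, 5.69, 5.51, 5.18 and 5.30 with PMA and 8.72, 8.52, 8.30 and 8.50 with both. Its 8.52-fold difference from PMA (3.09 ± 0.15) was the largest. TIPARP, an ADP-ribosyltransferase, stood 2.00 ± 0.11 above PMA, the G-protein regulator RGS2 1.33 ± 0.08 and the sphingosine 1-phosphate receptor S1PR3 1.13 ± 0.08. RHOB, a small GTPase of the endosome, stood 1.08 ± 0.09 above.

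The 45 genes fell into kinds by their calls against vehicle. In 18 both PMA alone and the combination were called higher than vehicle, the combination by more. Among them SLC9A2 (3.07), ADRA2A (3.69) and THBD (3.90) had vehicle means below the filter level of 4.05 to 4.12. In 9 the combination was called higher and PMA alone was not called. Among these SPINK13 was as low, at 3.72 with vehicle and 3.57 with PMA. Genes this low passed the filter largely through arrays of treated cells, so their inclusion favoured a difference. In 4 a fall with PMA was a rise with both agents: APOLD1, HS3ST3B1, PHACTR3 and SHISA2, the last pair chosen after their values were seen. For PHACTR3 the means with vehicle (3.85) and PMA (3.47) lay below the filter level, so its fall has no exact size. Its mean with DOC alone was 4.91, above the 4.33 with both agents. APOLD1, an endothelial early response gene, read 5.55, 5.66, 5.74 and 5.93 with vehicle, 6.59, 5.996, 6.22 and 6.26 with DOC, 4.54, 5.04, 4.99 and 4.87 with PMA and 7.03, 6.86, 6.89 and 7.29 with both. PMA arrays lay below all vehicle arrays and combined arrays above all others, 2.16 ± 0.13 above PMA.

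In 5 the fall with both agents was smaller than with PMA: TXNIP, S1PR1 and, chosen after their values were seen, FZD1, SYBU and CDC42EP4. TXNIP, which binds thioredoxin and limits glucose uptake, read 7.58, 8.17, 7.73 and 7.82 with vehicle, 7.26, 8.11, 7.83 and 7.73 with DOC, 5.47, 5.40, 5.78 and 5.63 with PMA and 6.83, 6.71, 6.75 and 6.58 with both. In the remaining 9, TSC22D3, MT1X and KLF7 among them, PMA lowered the gene and the combination was not called against vehicle. The 3 lower genes without the block were HSPA6, NRARP and RNF122, the last chosen after its values were seen. HSPA6, a strictly stress-induced HSP70, read 4.39, 3.89, 3.75 and 4.17 with vehicle, 3.85, 3.84, 3.56 and 3.78 with DOC, 8.06, 7.93, 7.45 and 7.31 with PMA and 5.58, 5.63, 4.71 and 4.76 with both. The combination thus kept HSPA6 1.12 above vehicle but 2.51 ± 0.21 below PMA (adjusted p = 9.33e-07).

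**Figure D5:**
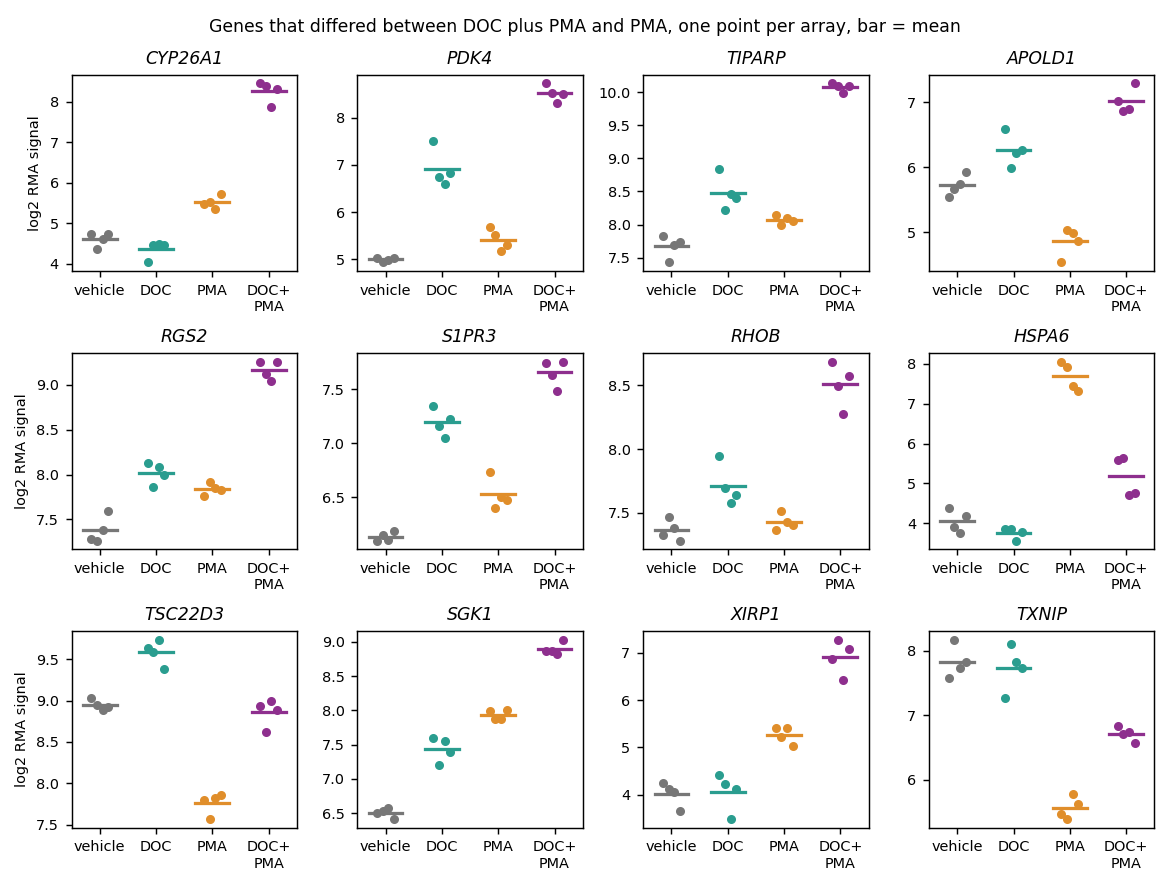
Log2 signal on each of the 16 arrays by group, for the 10 most significant genes of the comparison of DOC plus PMA with PMA alone, then XIRP1 and TXNIP, with group means as bars. The DOC arrays of CYP26A1, TXNIP and HSPA6 lie within or below the range of the vehicle arrays, and those of XIRP1 reach both below and above it. HSPA6 is the gene in which the combined arrays lie below the PMA arrays.

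The interaction test asked where the combined response departed from the sum of both single responses on the log2 scale. It called 11 genes (0.088%), 9 upward (0.072%) and 2 downward (0.016%), with 370 at an unadjusted p under 0.05. CYP26A1 exceeded the sum by 2.98 ± 0.18 (adjusted p = 5.65e-08), APOLD1 by 1.61 (adjusted p = 0.000531), TIPARP by 1.18 (adjusted p = 0.00137) and HS3ST3B1, a heparan sulfate sulfotransferase, by 0.76 (adjusted p = 0.00301). HSPA6 fell short of the sum by 2.23 (−2.23, adjusted p = 0.002). These 5 calls held under every alternative run. XIRP1, an actin-binding protein of muscle, read 4.24, 4.12, 4.05 and 3.66 with vehicle, 4.43, 4.22, 3.49 and 4.12 with DOC, 5.42, 5.23, 5.41 and 5.03 with PMA and 6.87, 7.27, 6.43 and 7.09 with both. Its excess was 1.59 (adjusted p = 0.0194). Those of TXNIP (1.24), PDK4 (1.18), RHOB (0.73) and RGS2 (0.69) and the shortfall of PHLDA1 (−0.77) had adjusted p between 0.0194 and 0.0381. The calls of XIRP1 and these 5 were lost under at least 1 alternative, and RHOB came to 0.17 (adjusted p = 0.999) when its probe sets were averaged. SGK1, FKBP5 and TSC22D3 were not called for the interaction. The XIRP1 means with vehicle (4.02) and DOC (4.07) lay near the filter level of 4.05 to 4.12, and the HSPA6 signals in these groups were similarly low. At such signals a DOC effect without PMA has no exact size, which limits the interaction values of both genes. The CYP26A1 means with vehicle (4.61) and DOC (4.36) lay above the filter level but below the lowest array median of 4.91. The size of its excess over the sum is therefore not exact either.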

How the data were processed

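RNA of HEK293 cells was hybridised to Affymetrix PrimeView arrays as biotin-labelled cRNA made from 100 ng of total RNA, per the labels' protocols. The authors deposited log2 signals from RMA (background correction, quantile normalisation and summary of probes) run in Affymetrix Expression Console. The software is named in the submitters' processing notes, and its version is not given in the sources used here. Quantile normalisation gives all arrays 1 distribution, so a shift of the whole transcriptome would not be seen.

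Of 49293 probe sets, 44988 had 1 gene in the platform annotation, 1832 several and 2473 none. Probe sets above the 40th percentile of the array in at least 4 of 16 arrays were kept (30613), and each of 12495 genes was represented by its single-gene probe set of highest mean signal. limma 3.58.1 (R 4.3.3) fitted 4 group means to all 16 arrays. The contrasts were DOC plus PMA against vehicle, against PMA, and the interaction, two-sided, with Benjamini-Hochberg adjustment over all genes at 0.05. The procedure was also run on simulated data, with an outcome not reported here. The simulated arrays varied independently, so that run does not cover the correlation between same-numbered arrays given below. The number of arrays limits the precision, and the median SE of a difference was 0.0879.

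The genes, lists and comparisons were chosen with earlier results of these data known. Genes named were the 15 largest rises and 15 largest falls without overlap between groups, the 4 members of each list with the smallest p (all members in lists of up to 14), all interaction calls, the 10 smallest p against PMA, and both corticosteroid receptors. Gene lists by symbol prefix covered whole families. Promoter windows came from RefSeq (GRCh38.p14), matched by symbol.

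Deviations from group means correlated between combined and PMA arrays of the same replicate number (0.352, 0.549, 0.367 and 0.157), which met the criterion for pairing, and not in all pairs with vehicle arrays (0.222, 0.0019, 0.0258 and 0.1685). A fit with the replicate block was an alternative, as were other filters, scalings, weights, probe set rules and sets of arrays.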

Additional observations from a re-analysis of the deposited data

Results flagged for a closer look

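In 20 of the 384 groups of 4 looked at for the genes named here (vehicle and combined arrays), 1 array lay far from the other 3 on the log2 scale, 5.21%, and chance gives about 1 in 20. Among vehicle arrays, the distant signals were 7.48 for BMP2, 11.31 for MT2A and 7.35 for HSPB8 in replicate 1. In replicate 2 they were 6.05 for F3, 4.00 for FOS, 9.36 for ITGA6 and 8.08 for NEDD4L. Replicate 3 gave 7.18 for C11orf96 and 5.45 for MYCL, and replicate 4 gave 4.52 for JUNB, 4.63 for NAB2 and 7.69 for XPC. Among combined arrays they were 9.34 for BAX, 8.06 for CCL7 and 3.86 for ZFP14 in replicate 1, and 12.18 for CCN2, 9.25 for HBEGF and 6.08 for HOXD13 in replicate 2. Replicate 3 gave 8.58 for ATF2 and 4.29 for NHLRC1.

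The effect of DOC differed between cells with and without PMA in 11 genes by the interaction test. The differences were 2.98 for CYP26A1, 1.61 for APOLD1, 1.59 for XIRP1, 1.24 for TXNIP, 1.18 for TIPARP, 1.18 for PDK4, 0.76 for HS3ST3B1, 0.73 for RHOB, 0.69 for RGS2, −0.77 for PHLDA1 and −2.23 for HSPA6.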

How the results depend on the processing

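The count of genes called against vehicle was 5476 and lay between 4747 and 6282 under the settings that kept all arrays, and between 4827 and 5831 without 1 array. Against PMA it was 48, and 89 with array weights, and 31 to 53 without 1 array, the lowest without combined replicate 4. For the interaction it was 11, and 25 with array weights, and 5 to 14 without 1 array. It came to 5 without DOC replicate 4, to 6 without vehicle replicate 2, PMA replicate 4 or combined replicate 1 or 4, and to 7 without vehicle replicate 3, DOC replicate 2 or combined replicate 2. With the replicate block the counts were 5753, 56 and 15. Without PMA replicate 2, DOC replicate 1 and combined replicate 2, which deviated together in earlier results of these data, they were 5941, 46 and 9. With the mean of a gene's probe sets KLF12 went to −0.15 and RORA, at −0.12 in its main probe set, to 0.37 (adjusted p = 0.0285); the cause was not tested. Of 278 named genes called against vehicle, 244 kept the call in each of the 26 settings in which they were tested. The filter at the 60th percentile tested only 9406 genes, and a named gene that it left out counts as kept there. The interaction calls of PDK4, PHLDA1, RGS2, RHOB, TXNIP and XIRP1 were lost in at least 1 setting. Signals near the array background limit folds of the largest rises.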
